A study of Mus musculus with 19 samples.

Results

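Kruppel-like factors are zinc finger transcription factors that bind GC-rich and CACCC-type DNA, and the 10 genes described here are Klf3, Klf4, Klf5, Klf6, Klf7, Klf9, Klf10, Klf12, Klf13 and Klf15. They were chosen by symbol, as Klf genes with a known or proposed bearing on axon growth. The rule did not use their measured values, but earlier results of these data were known when it was made. They are 10 of the 47069 genes in the count tables, and all 10 were present. RNA-seq was performed on GFP+ cells sorted from the retinas of C57/DBA F1 mouse embryos at E16.5, pooled from males and females, to compare retinal ganglion cells (RGCs) whose axons stay on the same side of the brain (iRGCs, 3 libraries) with those whose axons cross the midline (cRGCs, 3 libraries). Both populations carried the Sun1-GFP reporter, a nuclear envelope protein fused to GFP that is inserted at Rosa26 and is switched on by Cre recombinase. In the iRGC libraries, labelled Sert, Cre came from the Slc6a4-Cre transgenic line ET33. In the cRGC libraries, labelled Brn3b, Cre had been inserted into the Pou4f2 (Brn3b) locus by gene targeting, and the ventrotemporal region of the retina had been cut away. The genotype is otherwise given as WT. A Cre reporter of this kind also marks all descendants of a cell in which Cre was once active, and Pou4f2-Cre is not limited to cRGCs, so that dissection and not the driver kept iRGCs out of the cRGC libraries. The number of embryos behind each library is not given in the sources used here, and nothing says that the replicates came from separate litters, so p-values measure the spread between these libraries, which may be technical.

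In the ganglion cell, Klf factors act as brakes and accelerators of axon growth. Klf6 and Klf7 are close relatives that favour growth, whereas Klf4 and Klf9 restrain it, and growth capacity falls around birth as the balance moves from the first pair to the second. Members also fall into classes by the partners they recruit. Klf3 and Klf12 repress through the CtBP corepressors, Klf9, Klf10 and Klf13 repress through Sin3, and Klf4, Klf5, Klf6 and Klf7 can activate.

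Promoter sequence is shown for the 4 members at the centre of that balance, Klf4, Klf6, Klf7 and Klf9, since promoters of Klf genes can themselves hold sites for Klf and Sp proteins. Each line runs 5′ to 3′ on the gene's strand and is taken from the 250 bases before the RefSeq start (GRCm38.p6), without bases that GENCODE M21 annotates as exon. Capitals mark CACCC and GGGCGG, the core letters of the sites of Klf and Sp proteins, read on both strands, so that GGGTG and CCGCCC are the same letters on the other strand, and matches can overlap each other. Klf4 is at chr4:55532476-55532725 (minus strand), Klf6 at chr13:5861239-5861481 (plus strand), Klf7 at chr1:64121492-64121639 (minus strand) and Klf9 at chr19:23140976-23141225 (plus strand). The genes themselves span chr4:55527143-55532466, chr13:5861482-5870394, chr1:64029447-64122282 and chr19:23141226-23168134, in the same order, so that the Klf7 stretch lies inside the longer GENCODE gene but outside its exons.
Klf4: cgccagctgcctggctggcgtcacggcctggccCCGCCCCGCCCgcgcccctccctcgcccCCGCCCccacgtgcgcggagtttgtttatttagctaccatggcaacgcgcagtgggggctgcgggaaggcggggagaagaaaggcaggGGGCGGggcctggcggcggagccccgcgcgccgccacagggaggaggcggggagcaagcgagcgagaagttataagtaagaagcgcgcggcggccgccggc
Klf6: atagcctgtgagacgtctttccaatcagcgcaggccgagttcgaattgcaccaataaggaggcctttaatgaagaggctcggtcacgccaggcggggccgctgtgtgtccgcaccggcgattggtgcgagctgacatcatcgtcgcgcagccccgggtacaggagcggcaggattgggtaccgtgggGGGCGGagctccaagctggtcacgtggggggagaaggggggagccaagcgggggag
Klf7: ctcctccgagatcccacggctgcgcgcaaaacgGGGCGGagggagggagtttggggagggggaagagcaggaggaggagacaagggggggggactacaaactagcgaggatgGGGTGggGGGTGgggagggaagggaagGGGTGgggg
Klf9: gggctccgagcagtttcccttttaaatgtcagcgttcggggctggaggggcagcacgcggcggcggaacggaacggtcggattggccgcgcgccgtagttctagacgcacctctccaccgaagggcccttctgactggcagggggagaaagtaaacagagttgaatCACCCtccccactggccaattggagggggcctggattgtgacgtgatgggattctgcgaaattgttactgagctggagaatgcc

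RefSeq promoters were matched for 8 of the 10 members, all but Klf5 and Klf10. Within the whole 250 bases, 6 of the 8 held CACCC, against 52.0% of 32851 mouse promoters, and 6 of the 8 held GGGCGG, against 32.7%. The GC content of these windows ran from 48% for Klf12 to 78.4% for Klf3. All but Klf12 were above 52.4%, the median of all promoters. The comparison does not allow for GC content, whose part in the matches was not tested. The Klf7 stretch held 3 CACCC-type matches and 1 GGGCGG match. The Klf4 stretch, from the member with the largest relative difference between the populations, held 4 GGGCGG matches and no CACCC. Klf6 had 1 GGGCGG match, and Klf9 had 1 CACCC match. A match of these letters is a description and not a measured binding site.

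The libraries held between 28193178 and 33638083 reads counted on genes. Levels are given as CPM, counts scaled to library size and adjusted between libraries by the TMM method, and differences as log2 fold changes of iRGCs over cRGCs with their SE. A gene was called at an adjusted p-value under 0.1 (edgeR quasi-likelihood test, Benjamini-Hochberg over the 15941 tested genes). Before the Klf genes, the labels were checked against genes that define the populations. Zic2, the transcription factor that specifies iRGCs, was at 133, 173 and 157 CPM in iRGC replicates 1, 2 and 3 and at 57.0, 60.2 and 65.7 CPM in the cRGC replicates. The groups did not overlap, and Zic2 was higher in iRGCs (log2 difference 1.34, SE 0.128, adjusted p = 2.09e-04). Slc6a4, the serotonin transporter gene that gives the iRGC driver its name, was at 2.06, 33.4 and 116 CPM in the iRGC libraries and at 48.1, 35.4 and 30.5 CPM in the cRGC libraries. Replicate 1 of the iRGCs thus lay below every cRGC library for this gene and went against its label in that respect, although not for Zic2. Nor did it for the RGC transcription factor genes Pou4f2, Pou4f1 and Isl2, at 74.7, 107 and 19.1 CPM in replicate 1, each below every cRGC library, as in the other iRGC libraries. Each Klf result was therefore also computed without it, as given below.

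The populations also differed in cell state. Of 14 RGC markers, 13 were lower in iRGCs and none higher, with a summed level of 3106, 4429 and 6439 CPM in iRGCs and 16095, 14793 and 18642 CPM in cRGCs. Of 16 retinal progenitor markers, 15 were higher in iRGCs, with a summed level of 10623, 9263 and 8183 CPM against 1462, 2788 and 2033 CPM. In sorted bulk samples such as these, fewer cells of a type and less RNA per cell cannot be told apart. Against this background, 46.4% of all tested genes were called, 23.3% as higher in iRGCs and 23.1% as lower.

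All 10 Klf members passed the filter on low counts and were tested. Klf4, Klf9, Klf15, Klf6 and Klf3 were higher in iRGCs, Klf7 was lower, and Klf5, Klf10, Klf12 and Klf13 did not pass the threshold. The 6 of 10 members called stand beside the 46.4% of all genes, and the 5 higher members beside the 23.3%. The groups did not overlap for 7 of the 10 members, against 55.3% of tested genes, with 6 members above (27.1% of genes) and 1 below (28.2%). The median log2 fold change of the members was 0.80, and that of all tested genes was -0.00307. The plot of levels by library shows the members in the order in which they are described.

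**Figure D1:**
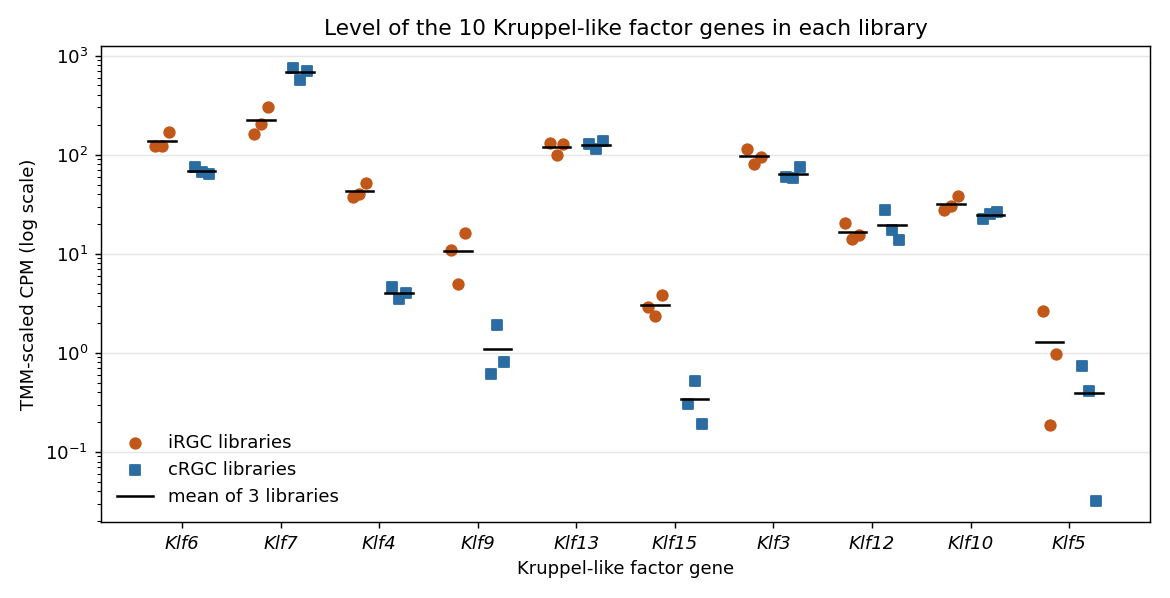
TMM-scaled CPM of the 10 Klf genes in each of the 6 libraries, on a log axis. Circles are iRGC libraries, squares are cRGC libraries, and each black line is the mean of 3 libraries. Klf7 is the only gene of the 10 whose iRGC points all lie below its cRGC points, whereas Klf4, Klf9 and Klf15 have iRGC points far above theirs.

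Among the growth-promoting pair, Klf7, which is needed for normal outgrowth of several sensory axon types, was at 163, 206 and 303 CPM in iRGCs and at 758, 572 and 706 CPM in cRGCs. The lowest cRGC library stood well above the highest iRGC library. The log2 value of iRGCs over cRGCs was -1.60 (SE 0.219, adjusted p = 6.21e-04), a level 3.03-fold higher in cRGCs. Klf6, an immediate early factor that is induced by injury and growth signals in many cells, was at 123, 123 and 168 CPM in iRGCs and at 75.2, 66.7 and 64.4 CPM in cRGCs. The order of the populations was the opposite of that for Klf7, again without overlap. Klf6 was higher in iRGCs by 1.01 on the log2 scale (SE 0.148, adjusted p = 8.71e-04), a 2.01-fold difference. Part of the Klf7 gene, 39.3% of its exon bases, lies under the opposite-strand noncoding gene Gm26649. The strand setting of the counting is not given in the sources used here, and without strand, reads from the shared bases could not be told apart. The part of this overlap in the Klf7 counts was not tested. The same limit holds for the levels per kilobase, shares and ratios of Klf7 given below.

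Among the growth-restraining members, Klf4, also known as a pluripotency factor and as a partner of Stat3 in ganglion cells, was at 37.6, 40.1 and 52.4 CPM in iRGCs and at 4.61, 3.52 and 4.00 CPM in cRGCs. The libraries of a population lay close together and the populations lay far apart. Klf4 was 10.7-fold higher in iRGCs, or 3.42 on the log2 scale (SE 0.213, adjusted p = 2.01e-04), and 1.62% of tested genes had a larger absolute log2 fold change. Klf9, a repressor that thyroid hormone and glucocorticoids induce in the brain, was at 11.0, 4.95 and 16.2 CPM in iRGCs and at 0.615, 1.90 and 0.807 CPM in cRGCs. Replicate 2 was the lowest of the iRGCs and the highest of the cRGCs, and the groups still did not overlap. On the log2 scale Klf9 was higher by 3.27 (SE 0.596, adjusted p = 0.00245), and by 3.91 without cRGC replicate 2. Its level in cRGCs rested on 16, 55 and 25 counts.

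Klf13, the closest relative of Klf9 and a repressor with much the same DNA preference, behaved differently. It was at 130, 100 and 127 CPM in iRGCs and at 127, 113 and 139 CPM in cRGCs, with overlapping groups. Klf13 differed by -0.08 on the log2 scale (SE 0.135, adjusted p = 0.683), and its sign turned with the libraries included. Klf15, a glucocorticoid-induced regulator of metabolism best known from muscle and liver, was at 2.89, 2.38 and 3.88 CPM in iRGCs and at 0.308, 0.518 and 0.194 CPM in cRGCs. It was low in all libraries, without overlap between the groups. Klf15 was higher by 3.15 on the log2 scale (SE 0.746, adjusted p = 0.00909), on 6 to 15 counts per cRGC library.

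The CtBP-recruiting repressors were split. Klf3, which acts in blood and fat cell differentiation, was at 114, 81.1 and 94.0 CPM in iRGCs and at 59.0, 57.6 and 74.5 CPM in cRGCs. The groups came close without touching, and Klf3 was higher in iRGCs by 0.59 on the log2 scale (SE 0.159, adjusted p = 0.0164). Klf12, first described as a repressor of Tfap2a, was at 20.5, 14.1 and 15.5 CPM in iRGCs and at 27.8, 17.4 and 13.9 CPM in cRGCs. The cRGC libraries spanned the whole iRGC range, and the difference of -0.24 on the log2 scale (SE 0.280, adjusted p = 0.550) became 0.09 without cRGC replicate 1.

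Klf10, the TGF-beta inducible early gene, was at 27.5, 30.2 and 38.4 CPM in iRGCs and at 22.6, 25.5 and 26.4 CPM in cRGCs. The groups did not overlap, but the gap between them was small and the log2 fold change of 0.37 (SE 0.173) did not pass the threshold (adjusted p = 0.129). Klf5, a factor of proliferating epithelia, was barely detected, at 2.67, 0.185 and 0.977 CPM in iRGCs and at 0.730, 0.414 and 0.0323 CPM in cRGCs. These levels were 83, 6 and 31 counts against 19, 12 and 1 count, so that the log2 fold change of 1.70 had an SE of 1.32 (adjusted p = 0.351). The spread between libraries of the same population was wider than the difference between the populations on the log2 scale, which ran from 0.57 without iRGC replicate 1 to 2.50 without cRGC replicate 1.

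Removal of iRGC replicate 1, the library with little Slc6a4, left the 6 calls in place. Without it, the log2 fold change was 3.51 for Klf4, 3.25 for Klf9, 3.19 for Klf15, 1.08 for Klf6, 0.46 for Klf3 and -1.41 for Klf7. Klf10 then passed the threshold at 0.47 (adjusted p = 0.0741). Members also varied within the populations. Among the iRGCs, the highest library was replicate 3 for 6 members and replicate 1 for the other 4, and was never replicate 2, where all tested genes peaked in 41.0% (replicate 3), 30.0% (replicate 1) and 29.1% (replicate 2) of cases. The coefficient of variation over the iRGC libraries ran from 13.8% for Klf13 to 99.3% for Klf5.

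The rest of the family was read in the same fit. Of the 7 Klf genes outside the 10, 5 were tested, with 1 higher and 2 lower in iRGCs, beside 23.3% and 23.1% of all tested genes. Klf2, which is characteristic of endothelium under blood flow and of quiescent T cells, was at 8.04, 27.1 and 11.6 CPM in iRGCs and at 1.42, 0.897 and 1.32 CPM in cRGCs. The log2 difference for Klf2, 3.68 (SE 0.505, adjusted p = 6.25e-04), was the highest of the 15 tested Klf genes, and was 3.02 without iRGC replicate 2. Klf8, the relative of Klf3 and Klf12 on the X chromosome, was at 9.55, 9.89 and 16.7 CPM in iRGCs and at 37.9, 33.0 and 30.3 CPM in cRGCs. It was lower in iRGCs, at -1.48 on the log2 scale (SE 0.246, adjusted p = 0.00153), so that within the CtBP class Klf3 and Klf8 differed in opposite directions.

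Klf16 was lower in iRGCs, at -0.52 on the log2 scale (adjusted p = 0.0416), a call that was lost without iRGC replicate 2, where the adjusted p was 0.118, without cRGC replicate 2 (0.142) and without cRGC replicate 3 (0.135). Klf11, the relative of Klf10, was at -0.40 on the log2 scale (adjusted p = 0.198) and passed only without iRGC replicate 3, at -0.75 (adjusted p = 0.00324). Klf1, the erythroid factor, had a log2 fold change of 0.35 with an SE of 1.49. Klf17 had no count in any library, which allows up to 3 counts in each, and Klf14 had 4 counts, all in iRGC replicate 3. Of the 9 Sp genes, which code for related zinc finger factors that bind the same GC-rich sites, 6 were tested. Sp1 (log2 fold change 0.96, SE 0.129, adjusted p = 5.69e-04) and Sp3 (0.72, SE 0.102, adjusted p = 7.30e-04) were higher in iRGCs and none was lower.

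**Figure D2:**
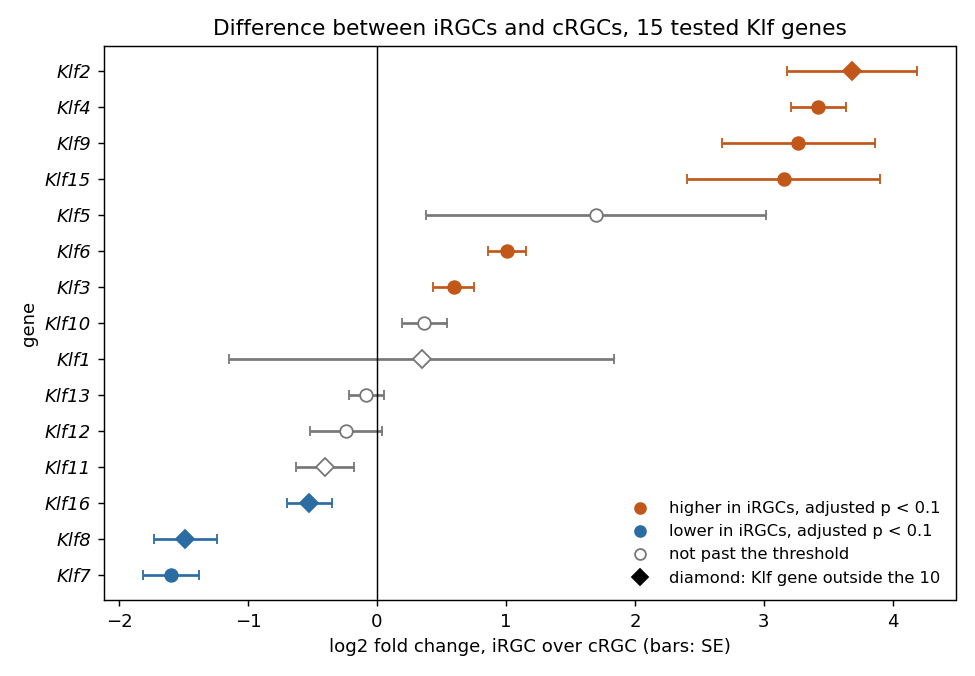
Log2 fold change of iRGCs over cRGCs for the 15 tested Klf genes, ordered by value, with bars of 1 SE. Filled symbols passed an adjusted p-value of 0.1, and diamonds are Klf genes outside the 10 members. Klf2, Klf4, Klf9 and Klf15 form a group above 3, and Klf7 and Klf8 stand at -1.60 and -1.48.

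Levels of different genes were then compared per kilobase of annotated exon, which allows for gene length. Summed over the 15 tested Klf genes, this level was 137 ± 23.1 (SD, n = 3) CPM per kilobase in iRGCs and 160 ± 14.5 (SD, n = 3) in cRGCs, whereas the share of each gene in that sum differed. Klf7 made up 19.8% ± 3.09 (SD, n = 3) of the sum in iRGCs and 52.1% ± 2.75 (SD, n = 3) in cRGCs. Klf6 made up 22.9% ± 0.767 (SD, n = 3) in iRGCs and 9.82% ± 0.816 (SD, n = 3) in cRGCs. In iRGCs, Klf6 and Klf7 came first and second without a difference beyond their spread, followed by Klf13 and Klf4, whose shares crossed in replicate 3. Klf3, Klf2 and Klf11 came next and did not differ beyond their spread, with the place of Klf2 resting on iRGC replicate 2 (3.61%, 11.5% and 3.85%). In cRGCs, Klf7 alone exceeded all other Klf genes together in 2 of 3 libraries, followed by Klf13 and Klf6, whose shares lay close to each other. Klf4 moved from 10.3% ± 0.152 (SD, n = 3) of the sum in iRGCs, the fourth place, to 0.828% ± 0.0451 (SD, n = 3) in cRGCs, the tenth place.

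**Figure D3:**
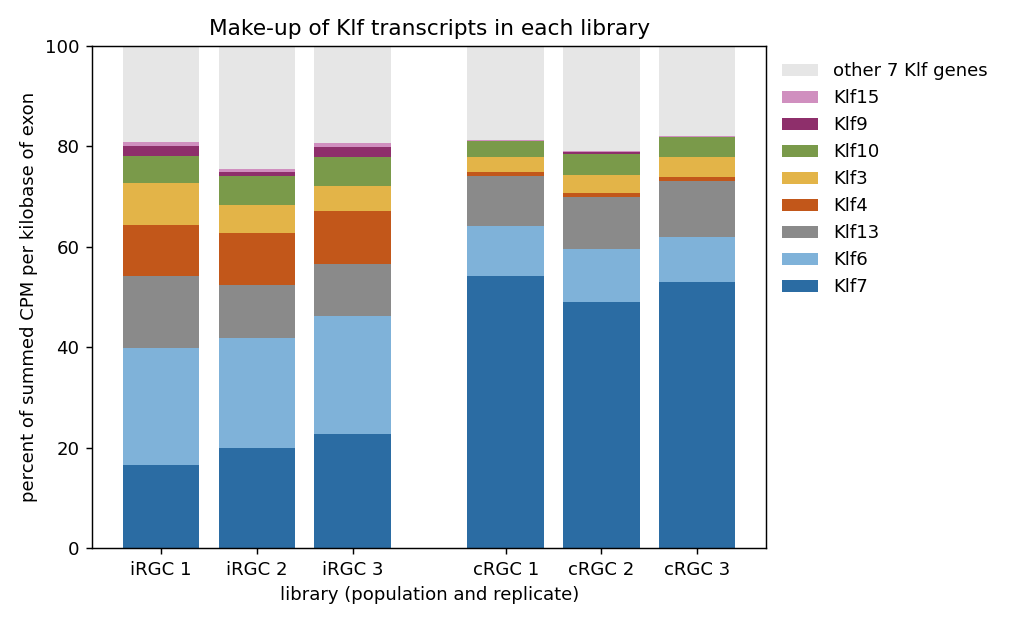
Percent of the summed CPM per kilobase of exon over 15 Klf genes that each gene takes in each library (bars stack to 100). Klf7 takes 16.6% to 22.8% in the iRGC libraries and 49.0% to 54.2% in the cRGC libraries, while the Klf4 band is wide in iRGCs and hardly visible in cRGCs.

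Pairs of related members were also compared within each library, where scaling between libraries plays no part. The count ratio of Klf7 to Klf6 was 1.33, 1.68 and 1.80 in iRGCs and 10.1, 8.58 and 11.0 in cRGCs. The highest iRGC ratio was thus far under the lowest cRGC ratio, a log2 difference of -2.63. The ratio of Klf9 to Klf13 was 0.0842, 0.0492 and 0.127 in iRGCs and 0.00484, 0.0168 and 0.00581 in cRGCs, a log2 difference of 3.38. The ratio of Klf12 to Klf3 was 0.181, 0.174 and 0.164 in iRGCs and 0.470, 0.302 and 0.187 in cRGCs, a log2 difference of -0.79. The groups did not overlap for any of these 3 pairs, and the exact permutation test (two-sided) gave p = 0.1 for each, adjusted p = 0.1, which is the smallest value that 3 libraries against 3 allow, so none can pass 0.05. Per kilobase, the sum of the growth-promoting Klf6 and Klf7 was 3.29, 3.77 and 3.68 times that of the growth-restraining Klf4 and Klf9 in iRGCs, and 67.3, 55.2 and 68.5 times in cRGCs. That contrast rests on the same Klf7 and Klf4 counts as above and was not tested.

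Since markers of cell state moved with the populations, each member was set beside the summed CPM of marker lists in the same library, a description made after the values had been seen. Klf7 equalled 5.25%, 4.66% and 4.71% of the summed RGC markers in iRGCs and 4.71%, 3.87% and 3.78% in cRGCs. The groups overlapped on this scale, with all 6 libraries between 3.78% and 5.25%. Klf8 overlapped likewise. Klf6, in contrast, equalled 3.96%, 2.78% and 2.61% of the RGC markers in iRGCs and 0.467%, 0.451% and 0.346% in cRGCs. On this scale Klf3, Klf4, Klf9, Klf10, Klf12, Klf13 and Klf15 were also higher in iRGCs without overlap, including the uncalled Klf10 (4.76-fold), Klf13 (3.67-fold) and Klf12 (3.34-fold), on markers that were themselves lower in iRGCs, and Klf5 overlapped.

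Klf4 equalled 0.354%, 0.432% and 0.640% of the summed progenitor markers in iRGCs and 0.315%, 0.126% and 0.197% in cRGCs. It was thus higher in iRGCs on this scale too, without overlap, although iRGC replicate 1 and cRGC replicate 1 lay close together. Klf15 was likewise higher without overlap (2.04-fold), whereas Klf9 and Klf5 overlapped on the same scale. Klf3, Klf6, Klf7, Klf10, Klf12 and Klf13 were lower in iRGCs relative to the progenitor markers, without overlap. The summed progenitor markers were themselves higher in iRGCs. The part of progenitor content in these differences was not tested.

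**Figure D4:**
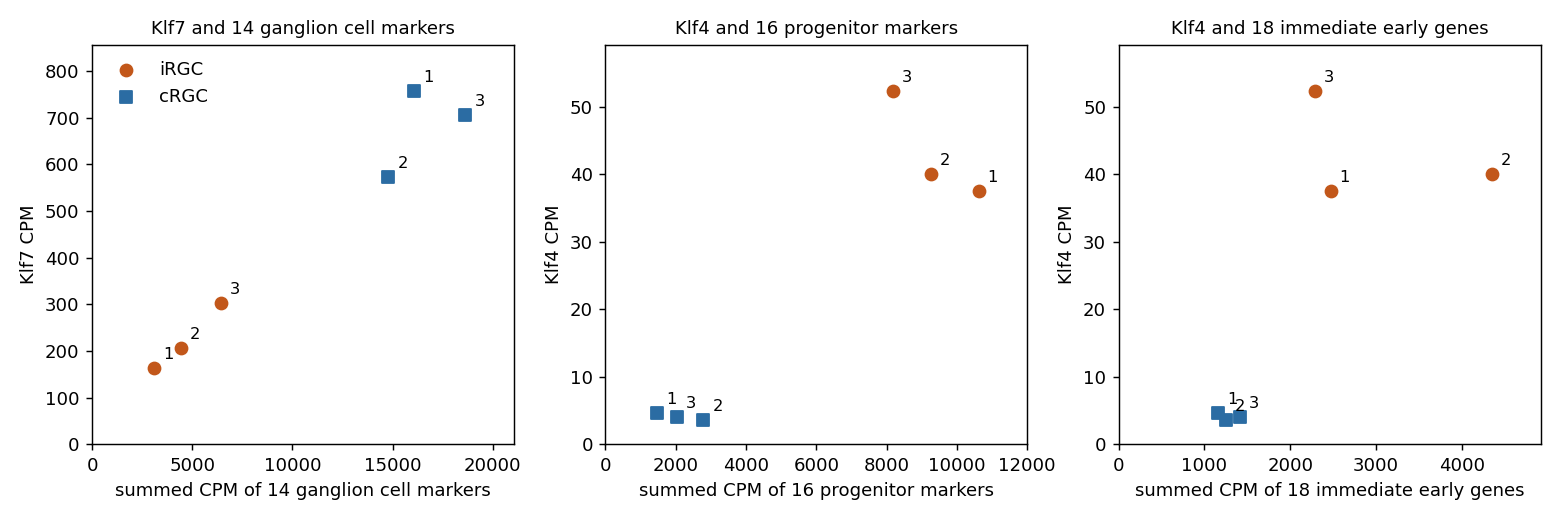
CPM of Klf7 against the summed CPM of 14 RGC markers (left), and of Klf4 against the summed CPM of 16 progenitor markers (middle) and 18 immediate early genes (right), with linear axes from 0. Each point is a library with its replicate number, circles iRGC and squares cRGC. Klf7 is low in the iRGC libraries, which have few RGC markers, and high in the cRGC libraries, which have many, whereas the iRGC library with the most progenitor markers has the least Klf4 of its population.

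Klf4, Klf6 and Klf10 are also known to respond rapidly to the dissociation of tissue, and both populations were dissociated enzymatically and sorted. Of 18 immediate early genes, 12 were higher in iRGCs and none lower, led by Atf3, Egr2 and Fosb. Their summed level was 2471, 4353 and 2291 CPM in iRGCs and 1160, 1253 and 1418 CPM in cRGCs. By mean level, Fos was the most abundant of them in iRGCs (447, 1016 and 320 CPM). In cRGCs it was Jund (311, 302 and 370 CPM), which also exceeded Fos in iRGC replicate 3 (494 CPM). Klf4 equalled 1.52%, 0.920% and 2.29% of the summed immediate early genes in iRGCs and 0.398%, 0.281% and 0.282% in cRGCs, without overlap. Klf6 overlapped on the same scale, and Klf10 was lower in iRGCs on it, at 1.11%, 0.693% and 1.67% against 1.95%, 2.03% and 1.86%. Replicate 2 of the iRGCs had the highest summed level of immediate early genes, while Klf4 and Klf6 were highest in replicate 3. With replicate 2 left out, the log2 values were 3.48 for Klf4 and 1.08 for Klf6. The part of the dissociation response in these differences was not tested.

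Klf2 and Klf4 are strongly expressed in endothelium, so endothelial markers were read as well. All 6 tested of the 12 endothelial markers were higher in iRGCs, with a summed level of 461, 709 and 436 CPM in iRGCs and 88.7, 109 and 71.8 CPM in cRGCs. The most abundant of them was Kdr, which retinal progenitors express too, at 366, 320 and 418 CPM in iRGCs. For 2 of the 6, Pecam1 and Esam, the groups overlapped, and the calls held in 11 and 8 of 13 settings (adjusted p up to 0.464 and 0.537), with Flt1 called in 12 of 13. Cdh5, Tie1, Eng and Erg were at 0 in every cRGC library. Pecam1, a marker of endothelium and some blood cells, was at 9.65, 53.0 and 0.284 CPM in iRGCs and at 0, 0.725 and 0 CPM in cRGCs. In the library with almost no Pecam1, iRGC replicate 3, Klf4 was at its highest, whereas Klf2 was highest in replicate 2, which had the most Pecam1. Relative to the summed endothelial markers, Klf4 was 1.84-fold higher in iRGCs. The groups nearly touched there, at 5.65% in iRGC replicate 2 and 5.57% in cRGC replicate 3. Klf2, Klf5, Klf9 and Klf15 overlapped on this scale. Klf3, Klf6, Klf7, Klf8, Klf10, Klf12 and Klf13 were lower in iRGCs on it, without overlap. Erythroid markers also peaked in iRGC replicate 2, with a summed level of 92.7 CPM against 12.2 and 15.3 CPM in the other iRGC libraries. The part of these cells in the Klf levels was not tested.

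Among corepressors and partners through which Klf proteins act, all 14 listed genes were tested, with 6 higher and 2 lower in iRGCs and a median log2 fold change of 0.21. Over all tested genes, 23.3% were higher and 23.1% lower. Rcor1, a scaffold of the REST corepressor complex (0.94, SE 0.129, adjusted p = 6.14e-04), the histone deacetylase Hdac1 (0.92, SE 0.149, adjusted p = 0.00143) and Fbxw7, a ubiquitin ligase adaptor that targets several Klf proteins (0.80, SE 0.169, adjusted p = 0.00520), had the largest positive log2 fold changes. The lower genes were Ctbp1, the corepressor of Klf3, Klf8 and Klf12 (-0.34, SE 0.117, adjusted p = 0.0443), and Sin3b (-0.23, SE 0.0997, adjusted p = 0.0983). The Ctbp1 call was lost without iRGC replicate 1, without iRGC replicate 2 and without cRGC replicate 3 (adjusted p up to 0.140), and the Sin3b call held in 6 of 14 settings (adjusted p up to 0.236). Their paralogs, named after the values had been seen, were higher in iRGCs, Ctbp2 by 0.75 (SE 0.135, adjusted p = 0.00233) and Sin3a by 0.67 (SE 0.116, adjusted p = 0.00190).

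Of 13 genes tied to Klf factors in neurons, 4 were higher and 7 lower in iRGCs, with a median log2 fold change of -1.05. These counts stand beside 23.3% higher and 23.1% lower of all tested genes. L1cam, an axonal adhesion molecule linked to Klf7 (-2.10, SE 0.249, adjusted p = 3.54e-04), was lower in iRGCs, as Klf7 was. Pou4f1, a partner of Klf7 in sensory neurons, was also lower (-2.28, SE 0.279, adjusted p = 4.00e-04). Socs3, an inhibitor of the Jak-Stat pathway in which Klf4 acts (2.06, SE 0.350, adjusted p = 0.00175), and Smad7 (1.20, SE 0.256, adjusted p = 0.00552) were higher. So was Tfap2a, the target from which Klf12 was first known (1.42, SE 0.365, adjusted p = 0.0135), while Klf12 itself was not called. Gap43 of this list also counts among the RGC markers above.

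Of 15 tested genes of thyroid hormone, corticosteroid and clock pathways, which include known inducers of Klf9 and Klf15, 7 were higher and 1 lower in iRGCs, with a median log2 fold change of 0.61. The shares of all tested genes were 23.3% higher and 23.1% lower. The glucocorticoid receptor gene Nr3c1 was at 94.0, 71.9 and 65.6 CPM in iRGCs and at 4.11, 14.4 and 11.6 CPM in cRGCs. Nr3c1 was thus higher in iRGCs by 2.94 on the log2 scale (SE 0.393, adjusted p = 5.56e-04). The mineralocorticoid receptor gene Nr3c2 (3.04, SE 0.972, adjusted p = 0.0347) and Dio3, which inactivates thyroid hormone (2.93, SE 0.437, adjusted p = 9.13e-04), were higher as well, but the Nr3c2 call was lost without iRGC replicate 2 (adjusted p = 0.211) or cRGC replicate 3 (0.107). The thyroid hormone receptor gene Thra was lower (-1.52, SE 0.233, adjusted p = 0.00105), while the other thyroid hormone receptor gene, Thrb, named after its values had been seen, was higher (1.87, SE 0.281, adjusted p = 9.49e-04).

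Of 16 other regulators of axon growth, transcription factors apart from the RNA-binding protein gene Lin28a, 6 were higher and 5 lower in iRGCs. Among all tested genes the shares were 23.3% and 23.1%. Atf3, Cebpb and Jun, which are known from injured neurons, had the largest positive log2 fold changes of those called, at 3.95, 3.23 and 0.87. Myc, Bcl11a and Sox4 had the largest negative ones, at -0.97, -0.80 and -0.64. The Cebpb call was lost without cRGC replicate 3 (adjusted p = 0.131), and the Myc call without either of iRGC replicates 1 and 2 or of cRGC replicates 1 and 2 (adjusted p up to 0.179) and with the replicate block (0.111). Atf3 and Jun are also immediate early genes and count in that list too, and Stat3 is also among the genes tied to Klf factors.

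To show which genes followed the same pattern, each member of the growth-promoting pair was correlated with 10274 well-counted genes over the 6 libraries (Pearson r of log2 CPM). This is a description over libraries that share their population split and their depth. Klf6 was most like Nrip1 (r = 0.999) and Ing3 (0.998), and 194 genes had an r above 0.95. Klf7 was most like Trak1, Txnrd3 and Olfm2 (each 0.999), and 1703 genes had an r above 0.95.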

How the data were processed

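RNA-seq of 6 libraries was used, and the study's 13 ATAC-seq samples were not analysed here. Per the labels and the study's methods, the authors aligned reads to mm10 with HISAT2 2.1.0, counted them on genes of GRCm38 with HTSeq 0.11.1 and deposited raw counts per gene, 1 table per library. Tallies that name no gene (43.1% to 47.3% of all tallies) stayed out of library sizes and tests. Symbols and exon lengths came from GENCODE M21 for 46488 of 47069 identifiers. Tests on the counts used edgeR 4.0.16 under R 4.3.3 (filterByExpr, TMM, quasi-likelihood test, two-sided, no block, adjusted p under 0.1). Each SE was obtained as the size of the log2 difference over the root of its F statistic. TMM factors ran from 1.03 to 1.10 for iRGC libraries and from 0.921 to 0.952 for cRGC libraries, and with a biological coefficient of variation of 36.3% small changes of rare genes were not detectable. The tests were checked on simulated data. Alternatives were DESeq2 1.42.0, limma 3.58.1 voom, other scaling factors, other filters, a replicate block and removal of each library.

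The members and the 22 gene lists were chosen with earlier results of these data known. Genes named are the members, the tested Klf genes outside them, genes of the populations, up to 3 genes per direction and list by absolute log2 fold change among those called, and the 3 genes most like Klf6 and Klf7. Of the genes that this rule names, 2 are not reported here. Of the markers of other cell types, the text gives those lists that bear on a member. Among those not yet given, 4 of 6 tested mural, 3 of 8 microglial, 1 of 3 fibroblast, 6 of 7 photoreceptor precursor, 7 of 8 amacrine, 1 of 5 horizontal and 1 of 3 astrocyte genes were higher in iRGCs, with no lower gene except 1 photoreceptor precursor and 1 astrocyte gene. All 4 tested erythroid genes were higher, and of 4 pigment epithelium and 3 lens genes none was called.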

Additional observations from a re-analysis of the deposited data

How the results depend on the processing

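Over 13 alternatives, 122 of 128 values of the 10 members kept their direction and their side of the threshold, and no called member was lost at the adjusted p-value alone, where leaving out single libraries moved Klf9 between 2.83 and 3.91. Klf10 passed in 3 of them, without iRGC replicate 1 (adjusted p = 0.0741), with upper quartile factors (0.0865) and with at least 10 counts in every library (0.0958). Of members that were not called, leaving out single libraries moved Klf5 between 0.57 and 2.50, Klf12 between -0.42 and 0.0864 (reversed without cRGC replicate 1) and Klf13 between -0.15 and 0.0294 (reversed without iRGC replicate 2 and, at 0.00128, without cRGC replicate 3). In the same way Klf1 moved between -0.13 without iRGC replicate 2 and 1.33 without cRGC replicate 1, with -0.05 without cRGC replicate 2, and was -0.55 with limma voom. Slc6a4 moved between -1.11 without iRGC replicate 3 and 0.98 without iRGC replicate 1, and was -0.54 with the replicate block and -0.86 with limma voom. The cause of these reversals was not tested. With an absolute log2 fold change above 1 also required, 1930 genes were higher and 1758 lower, in place of 3707 and 3688, by construction, and 4 members were higher in place of 5, since Klf3 (0.59) falls below that limit.

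Without division by exon length, the shares of the Klf sum in iRGCs and cRGCs were 28.8% and 61.7% for Klf7, 18.0% and 6.30% for Klf6, 15.7% and 11.5% for Klf13 and 5.65% and 0.368% for Klf4. Same-numbered libraries did not deviate together over the tested genes (r = -0.0119, -0.0176 and -0.0518). Whether the numbers pair libraries by day or sort is not given, and these correlations cannot decide it. With the replicate block, 5 members were higher and 1 lower, as without it, and 3316 and 3435 of all tested genes. For the 3 pair ratios, paired sign flips cannot give an exact p under 0.25, and the values without 1 library cannot pass either. Klf5, Klf9 and Klf15 rest on few counts in cRGCs, which limits their precision.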
